A study of Mus musculus with 45 samples.

Results

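The granule genes of immature neutrophils were followed in RNA sequencing of mouse lung, spleen, implanted scaffold and primary mammary tumor. The set held 10 genes, chosen by name as genes of the granules that neutrophils fill while they mature in the bone marrow, and all 10 were found among the 55367 gene symbols of the count table. Of these, 4 encode proteins of the primary granules (Elane, Mpo, Prtn3, Ctsg) and 6 encode proteins of the secondary granules (Camp, Ltf, Ngp, Lcn2, Chil3, Pglyrp1).

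The series held 45 libraries in 15 groups of 3, all from female BALB/c mice whose tissues were taken 14 days after an orthotopic injection of 2000000 cells of 67NR, 4T07 or 4T1, or from healthy mice without a tumor (Control). All of these lines go back to 1 mammary tumor that arose in a BALB/cfC3H mouse: 67NR grows in the mammary fat pad without leaving it, 4T07 sheds cells that rarely form visible metastases, and 4T1 metastasizes. Lung, spleen and scaffold came from all of these mice, Controls included, and primary tumors from the 3 tumor-bearing groups. The scaffold was a porous polycaprolactone disk set under the skin of young adult mice before inoculation, so every group, Controls included, carried an implant and its foreign body response. A lung, spleen or scaffold is named below by the tumor its mouse carried (a 4T1 lung is the lung of a mouse with a 4T1 tumor). There were 3 mice a group, and no label tied the tissues of a mouse together.

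Neutrophils lay down their granules in sequence. Promyelocytes transcribe the primary (azurophil) granule genes, myelocytes and metamyelocytes transcribe the secondary (specific) granule genes, and both programs are largely shut off by the time a neutrophil enters the blood. Mature cells keep the proteins but little of the mRNA, and instead carry abundant S100a8, S100a9 and chemokine receptor mRNA, so granule gene mRNA outside the marrow marks cells that are still immature. In adult mice the bone marrow is the main site of this development, with the spleen as a further site when demand rises. Elane (neutrophil elastase), Prtn3 (proteinase 3) and Ctsg (cathepsin G) are serine proteases and Mpo (myeloperoxidase) makes hypochlorous acid. Camp (the cathelicidin precursor), Ltf (lactoferrin, which binds iron), Ngp (neutrophilic granule protein), Lcn2 (lipocalin 2, which binds bacterial siderophores), Chil3 (the chitinase-like protein Ym1) and Pglyrp1 (a peptidoglycan-binding protein) belong to the later stage. Several of the secondary genes have other sources: Lcn2 and Ltf are also made by epithelia and Chil3 by alveolar macrophages.

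The members are shown first by their upstream sequence, since myeloid transcription factors set the order in which these genes are switched on. All 10 matched a RefSeq gene on GRCm38.p6, and for 9 of them, all but Chil3, the sequence after the window was found at the start of a listed transcript. Prtn3 and Elane lie next to each other on chromosome 10, and Camp, Ngp and Ltf lie on chromosome 9, without being direct neighbours. The 250 bases before the start of 2 primary and 2 secondary members are printed 5′ to 3′ on the strand of the gene, with capitals marking the letters TTGCNNAA (bound by C/EBP factors), AGGAAG (bound by ETS factors such as PU.1) or TGTGGT (bound by Runx factors) on either strand.
Elane, chr10:79886062-79886311, plus strand: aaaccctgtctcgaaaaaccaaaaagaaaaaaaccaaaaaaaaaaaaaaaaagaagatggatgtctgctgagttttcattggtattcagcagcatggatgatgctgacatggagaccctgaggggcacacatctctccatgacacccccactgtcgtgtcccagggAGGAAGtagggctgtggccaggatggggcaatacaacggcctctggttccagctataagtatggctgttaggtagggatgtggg
Prtn3, chr10:79879417-79879666, plus strand: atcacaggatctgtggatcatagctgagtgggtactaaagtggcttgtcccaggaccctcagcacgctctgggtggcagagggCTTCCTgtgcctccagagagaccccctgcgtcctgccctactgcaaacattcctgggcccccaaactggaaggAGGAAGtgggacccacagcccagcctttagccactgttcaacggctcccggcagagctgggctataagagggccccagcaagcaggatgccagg
Camp, chr9:109849457-109849706, minus strand: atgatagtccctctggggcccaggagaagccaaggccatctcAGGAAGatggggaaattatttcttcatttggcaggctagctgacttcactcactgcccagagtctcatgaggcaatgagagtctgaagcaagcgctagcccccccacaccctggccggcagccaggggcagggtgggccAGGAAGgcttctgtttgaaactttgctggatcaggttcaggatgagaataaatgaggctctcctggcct
Ngp, chr9:110419558-110419807, plus strand: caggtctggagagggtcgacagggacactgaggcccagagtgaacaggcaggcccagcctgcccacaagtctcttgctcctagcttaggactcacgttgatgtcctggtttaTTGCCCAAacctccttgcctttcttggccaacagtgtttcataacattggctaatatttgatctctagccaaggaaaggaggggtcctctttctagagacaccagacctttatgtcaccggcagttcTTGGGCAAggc
The AGGAAG letters were found in 9 of the 10 windows, against 29.5% of 32851 RefSeq gene windows of the same length, and Ngp was the member without them. TTGCNNAA was found in 3 windows (Ltf, Ngp, Lcn2), against 9.56% of all windows, and Ngp held it at 138 and at 11 bases before its start. TGTGGT was found in the Ctsg window alone, against 14.1% of all. The short pattern AACNGN, bound by Myb, was found in all 10 windows and in 74.1% of all windows. Prtn3 and Camp each held AGGAAG at 2 places, 167 and 94 bases before the start in Prtn3 and 208 and 69 bases before it in Camp. Matches were counted on both strands and could overlap one another. They describe letters only, and binding was not measured.

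Libraries held from 3491888 to 8175380 counts (median 5149589), so that 3 counts, used here as the floor of detection, equalled 0.367 to 0.859 CPM. Levels below are in this unit, a gene's counts divided by its library's total and multiplied by 1000000, and values of 3 libraries are given in the order of their replicate numbers, which are names only. Intervals on summed counts and the 3-count floor cover counting error only. No pair of libraries within a group was identical (45 pairs). Because tissue was sequenced in bulk, fewer cells of a type and less RNA per cell cannot be told apart. A gene was called when its adjusted p was under 0.10 in lung, spleen and scaffold or under 0.05 in tumors and its fold change was over 2, with all groups of a tissue in 1 fit of the genes with more than 10 counts, which all 10 members passed. A permutation of 3 libraries against 3 cannot give a two-sided p under 0.1, so single genes were tested in that model only. The libraries are 3′ tags, and levels of different genes are not compared one by one here. Ratios and shares of summed levels are given below and are meant for comparison between libraries.

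Several 4T07 libraries stood apart, and their values are given before the results. In the 3 4T07 lungs the summed CPM of 10 erythroid markers was 32305 to 44135, against 6567 to 8033 in Control lungs and 57465 to 78579 in 4T07 spleens. B cell markers summed to 409 to 544 CPM there and to 147 to 181 CPM in Control lungs. The spleen stroma gene Tlx1, chosen after its values were seen, was at 11.1 to 14.6 CPM in the 4T07 lungs, at 0.324 to 0.541 CPM in Control lungs and at 11.9 to 16.7 CPM in 4T07 spleens. Airway and alveolar epithelial markers, which define lung, summed to 5414 to 13792 CPM in the 4T07 lungs and to 34694 to 36689 CPM in Control lungs. Replicate 1 of the 4T07 scaffolds (erythroid sum 11484, against 2835 and 1372 CPM in the others, and Tlx1 at 4.65 CPM) and replicate 1 of the 4T07 tumors (10462, against 2526 and 2038 CPM, and Tlx1 at 4.42 CPM) were also high. The part of these libraries' make-up in the granule gene results was not tested, and the main values that rest on either replicate 1 are given with and without it.

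**Figure D1:**
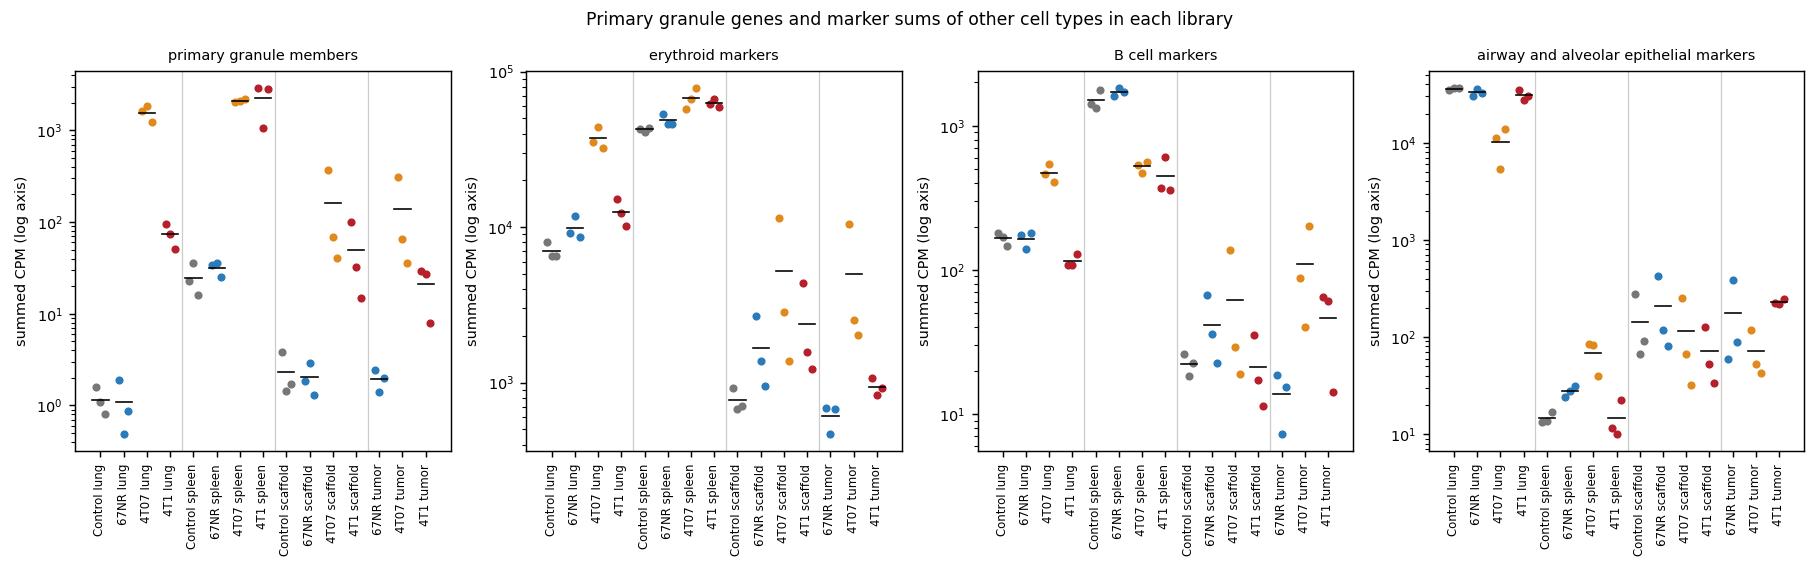
Summed CPM (log axes) of the 4 primary granule genes and of 3 marker lists of other cell types in each of the 45 libraries; points are libraries, black lines are group means, and colors give the tumor line. The 4T07 lungs hold 32305 to 44135 CPM of erythroid markers and 1234 to 1851 CPM of primary granule genes, both above every other lung.

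Without a tumor, primary granule mRNA was low everywhere and highest in the spleen. In Control spleens Elane was at 4.47, 8.08 and 3.88 CPM and Ngp at 33.4, 47.3 and 23.7 CPM. In Control lungs Elane had 2 counts in all (0.174, 0.180 and 0 CPM), and in Control scaffolds it had none. Against Control lung, 6 members were higher in Control spleen, namely the 4 primary members, Camp and Ngp, where 19.7% of all genes tested were called higher. Pooled over libraries, Elane was 47.0-fold higher in Control spleen (95% counting interval 12.6 to 395, 76 against 2 counts). Mpo was higher by 4.41 ± 0.46 on the log2 scale (± SE, adjusted p = 1.12e-06) and Camp by 4.90 ± 0.56 (adjusted p = 3.17e-06; edgeR quasi-likelihood test with Benjamini-Hochberg adjustment, used for every adjusted p below). Fitted folds of genes near the floor depend on the prior count.

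2 members were lower in Control spleen than in Control lung, where 20.2% of genes were called lower. Lcn2 was at 37.0, 45.6 and 42.6 CPM in Control lungs and at 7.19, 9.23 and 5.17 CPM in Control spleens, a log2 difference of -2.49 ± 0.25. Chil3 was at 102, 125 and 75.4 CPM in Control lungs and at 5.63, 6.23 and 2.16 CPM in Control spleens, a log2 difference of -4.38 ± 0.32. All 3 lungs lay above all 3 spleens for both genes, as they did for 30.3% of all genes tested. Control lungs therefore held Chil3 and Lcn2 mRNA almost without primary granule mRNA. Ltf (-0.47, adjusted p = 0.289) and Pglyrp1 (-0.08, adjusted p = 0.872) did not pass the test between these tissues. Chil3 lies beside its close homolog Chil4, and counts of such pairs can be split by the authors' counting.

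Control scaffolds were low in all members. Elane was at 0 counts, which makes Control spleen at least 10.4-fold higher against a floor of 3 counts per library, and the other 3 primary members were between 0.317 and 1.68 CPM. Control spleens were higher than Control scaffolds for 9 members (17.5% of genes were called higher) and Lcn2 missed the threshold (0.48, adjusted p = 0.183). The calls of Chil3 (1.16 ± 0.43) and Ctsg (1.75 ± 0.62) in this comparison were each lost without any 1 of 3 libraries, with log2 differences of 0.85 to 0.97 for Chil3 (without Control scaffold 3, Control spleen 1 or Control spleen 2) and 1.42 to 1.48 for Ctsg (without Control scaffold 2, Control scaffold 3 or Control spleen 2). Control lungs were higher than Control scaffolds for Ltf, Lcn2, Chil3 and Pglyrp1 (17.9% of genes called higher), by 2.06 to 5.55 on the log2 scale. Ctsg was called lower (14.7% of genes called lower) on 4 counts against 14, a ratio of 0.285 (0.0684 to 0.908), and this call was lost without Control lung 2, Control lung 3 or Control scaffold 1 (log2 -1.83 to -1.14). Ngp was called lower there without Control lung 1 (-1.99) or Control scaffold 3 (-1.71).

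**Figure D2:**
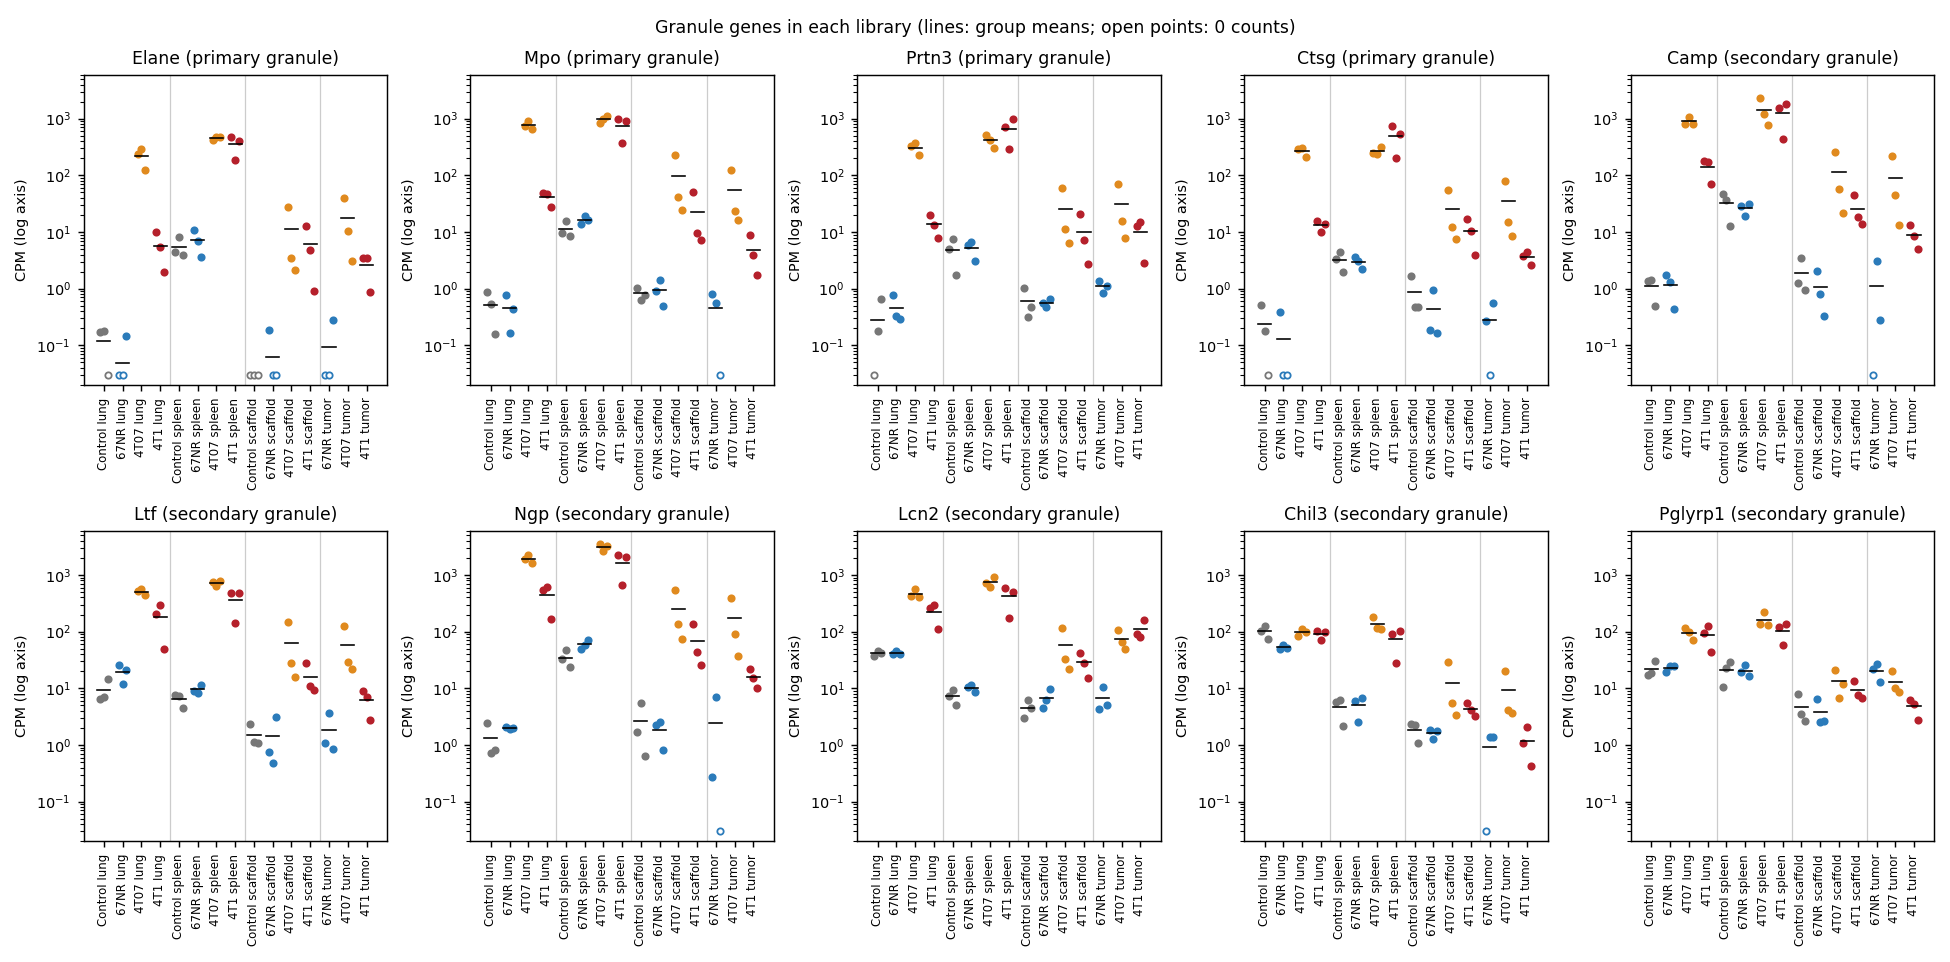
CPM (log axis) of each of the 10 granule genes in every library, ordered by tissue and tumor line; points are libraries, open points are libraries with 0 counts, and black lines are group means. Elane is between 187 and 483 CPM in the 4T07 and 4T1 spleens and between 127 and 287 CPM in the 4T07 lungs, and at most 40.1 CPM in every other library.

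In the spleen, 4T07 and 4T1 tumors went with a large rise of all 10 members, and with 67NR tumors no member passed the test. Elane rose from 4.47, 8.08 and 3.88 CPM in Control spleens to 428, 483 and 482 CPM with 4T07 and 475, 187 and 399.9 CPM with 4T1. Mpo was at 9.71, 15.7 and 8.41 CPM in Controls, 826, 971 and 1107 CPM with 4T07 and 976, 374 and 892 CPM with 4T1. Every spleen of these 2 tumor groups lay above every Control spleen for all 10 members, as it did for 13% of all genes tested with 4T07 and 14.4% with 4T1. Prtn3 reached 712, 294 and 992 CPM in the 4T1 spleens, from 5.05, 7.61 and 1.72 CPM in Controls. Ctsg reached 740.2, 203 and 542 CPM, from 3.30, 4.38 and 1.94 CPM. Replicate 2 was the lowest of the 4T1 spleens for every member.

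Against Control, 4T1 spleens were higher for 10 of 10 members (9.85% of genes were called higher), and so were 4T07 spleens (8.26%). These comparisons use the same Control libraries and are set side by side only. For Elane the log2 fold change was 6.28 ± 0.42 with 4T1 (adjusted p = 7.89e-08) and 6.59 ± 0.43 with 4T07. For Ctsg it was 7.53 ± 0.46 with 4T1 (adjusted p = 4.97e-08) and 6.54 ± 0.45 with 4T07. The median over the primary members was 6.85 with 4T1 and 6.59 with 4T07, where the median over all genes was -0.10 and -0.09. The members' own range was wide at the lower end, with Pglyrp1 at 2.61 ± 0.36 with 4T1 and 3.15 ± 0.36 with 4T07.

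The secondary members rose in the same spleens. Ngp was at 3472, 2611 and 3227 CPM with 4T07 and 2239, 668 and 2064 CPM with 4T1, from 33.4, 47.3 and 23.7 CPM in Controls. Camp was at 2282, 1232 and 773 CPM with 4T07 and 1541, 429 and 1838 CPM with 4T1, from 47.2, 36.5 and 12.7 CPM. Ltf was at 742, 629 and 788 CPM with 4T07 and 488, 143 and 471 CPM with 4T1, from 7.57, 7.38 and 4.53 CPM. The 3 libraries of a group spread several-fold for Camp and far less for Ltf with 4T07. Lcn2 rose by 6.13 ± 0.41 on the log2 scale with 4T1 (adjusted p = 7.89e-08), to 579, 176 and 501 CPM, and Chil3 by 4.24 ± 0.46, to 92.0, 28.2 and 101 CPM. The median over the secondary members was 5.70 with 4T1 and 6.13 with 4T07. Together the 10 members took 0.256% to 0.796% of all counts in the 4T1 spleens and up to 0.954% in the 4T07 spleens, against 0.00931% to 0.0165% in Control spleens.

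In the 67NR spleens no member passed the test (2.26% of genes were called in either direction), and 0 had an unadjusted p under 0.05 in edgeR, with 0 calls from the DESeq2 Wald test too. Elane was at 10.9, 6.90 and 3.59 CPM and Ngp at 50.3, 57.5 and 70.2 CPM there. All 3 67NR spleens lay above the Control spleens for Ngp, with a log2 fold change of 0.67 (adjusted p = 0.353), while for Elane the groups overlapped. Of all genes tested, 15.8% had every 67NR spleen above every Control spleen. The 4T1 spleens were higher than the 67NR spleens for 10 of 10 members (10.3% of genes called higher), by 2.72 for Pglyrp1 to 7.73 for Ctsg on the log2 scale.

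The 4T1 and 4T07 spleens were not told apart by any member in edgeR (2.33% of genes were called in either direction), although 5 had an unadjusted p under 0.05, as 16.5% of all genes did. These were Prtn3 and Ctsg (log2 0.80 and 0.99, adjusted p = 0.295 and 0.135) and, with the other sign, Ltf, Ngp and Lcn2 (-0.87, -0.80 and -0.74, adjusted p from 0.181 to 0.254), and the DESeq2 Wald test called 0. Without replicate 2 of the 4T1 spleens, Ctsg passed (1.37, adjusted p = 0.00951). Erythroid markers moved with these results, with 8 of 10 called higher in 4T1 spleens and 6 of 10 in 4T07 spleens against Control, and eosinophil markers summed to 442 to 1206 CPM in 4T1 spleens against 152 to 202 CPM in Controls. B cell markers moved the other way, from 1325 to 1768 CPM in Control spleens to 361 to 609 CPM with 4T1 (4 of 6 called lower) and 472 to 561 CPM with 4T07 (3 of 6). Of all genes tested, 10% were called lower in 4T1 spleens and 10.3% in 4T07 spleens against Control. T cell markers fell from 242 to 334 CPM in Controls to 105 to 134 CPM with 4T1 (3 of 6 called lower) and 106 to 135 CPM with 4T07 (5 of 6). The part of these markers in the spleen results was not tested.

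In the 67NR lungs Chil3 was the only member that passed the test, and it was lower than in Controls. Chil3 was at 48.6, 59.1 and 52.4 CPM in 67NR lungs and 102, 125 and 75.4 CPM in Control lungs. For Chil3 all 67NR lungs lay below all Control lungs, as they did for 9.27% of all genes tested. The log2 fold change was -1.02 ± 0.19 (adjusted p = 0.0029), and 1.73% of genes were called lower. It fell under the 2-fold limit without 67NR lung 1, Control lung 1 or Control lung 2 (-0.85 to -0.99) and with library totals in place of TMM factors (-0.91). Alveolar macrophage markers summed to 408 to 511 CPM in 67NR lungs and 424 to 570.4 CPM in Control lungs, with 2 of 8 called lower, and their part was not tested. Elane had 1 count in all 3 67NR lungs together.

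The 4T1 lungs held all 4 primary members above Controls, but at levels far under those of the 4T1 spleens. Elane was at 9.82, 5.37 and 1.95 CPM and Mpo at 48.8, 46.0 and 27.3 CPM, where Control lungs had 0.174, 0.180 and 0 CPM and 0.872, 0.541 and 0.162 CPM. Prtn3 was at 20.3, 13.4 and 7.95 CPM and Ctsg at 15.6, 10.2 and 13.6 CPM, where no Control lung exceeded 0.647 CPM. Each 4T1 lung was above each Control lung for these 4 genes and for 13.3% of all genes tested. Pooled over libraries, Elane was 49.0-fold higher than in Controls (13.2 to 409, 112 against 2 counts), Mpo 78.8-fold (41.3 to 173), Prtn3 47.9-fold (20.3 to 149) and Ctsg 56.8-fold (21.9 to 210.2). All 4 passed the edgeR test (adjusted p from 3.91e-10 for Mpo to 0.000378 for Elane).

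Among the secondary members, 5 rose in the same 4T1 lungs. Ngp rose from 2.44, 0.721 and 0.809 CPM to 547, 618 and 166 CPM, a log2 fold change of 8.38 ± 0.48 (adjusted p = 3.88e-10). Camp rose from 1.39, 1.44 and 0.486 CPM to 181, 171 and 69.3 CPM, a log2 fold change of 6.99 ± 0.41 (adjusted p = 4.30e-10). Ltf, already at 6.45, 7.03 and 14.4 CPM in Controls, was at 206, 293 and 49.5 CPM (4.30 ± 0.46). For all 3 the libraries of the groups did not overlap, and replicate 3 was the lowest of the 4T1 lungs. Lcn2 rose from 37.0, 45.6 and 42.6 CPM to 262, 298 and 113 CPM (2.44 ± 0.25). Pglyrp1 rose from 17.1, 18.9 and 30.9 CPM to 94.5, 127 and 43.6 CPM (2.00 ± 0.29). Chil3 did not pass the test, at 101, 69.8 and 98.2 CPM against 102, 125 and 75.4 CPM (-0.16, adjusted p = 0.688). In all, 9 of 10 members were called higher in 4T1 lungs, where 3.56% of genes were, with a median log2 fold change of 5.62 over the primary and 3.37 over the secondary members and -0.00245 over all genes.

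Against the 67NR lungs, 9 members were higher in 4T1 lungs as well (3.23% of genes called higher). Chil3 was 1.82-fold higher there (adjusted p = 0.00569), under the 2-fold limit, and passed it without 4T1 lung 2 (log2 1.00, adjusted p = 0.0028). Elane was 103-fold higher over pooled counts (18.0 to 4089, 112 against 1 count) and Ctsg 119-fold (32.6 to 989, 260 against 2 counts). These counts were unchanged when the 3 4T07 lungs were left out of the fit, an alternative chosen after the data had been seen, with 9 members called higher in 4T1 lungs against Control, 9 against 67NR and 1 lower in 67NR lungs. Eosinophil markers summed to 46.6 to 77.8 CPM in 4T1 lungs against 18.1 to 33.5 CPM in Control lungs, and 6 of 10 erythroid markers were called higher, and their part in these results was not tested.

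The 4T07 lungs held primary granule mRNA at mean levels of 46.5% (Elane) to 101% (Ctsg) of the 4T07 spleens. Elane was at 235, 287 and 127 CPM, Mpo at 755, 901 and 668 CPM and Ctsg at 295, 299 and 213 CPM. Prtn3 was at 326, 365 and 225 CPM and Camp at 821, 1051 and 810.3 CPM. Every 4T07 lung was above every Control, 67NR and 4T1 lung for these 5 genes and for Ngp, Ltf and Lcn2. Of all genes tested, 25% had every 4T07 lung above every Control lung, and 21.6% had every 4T07 lung above every 4T1 lung. Pooled over libraries, Elane was 1898-fold higher than in Control lungs (525 to 15679, 3082 against 2 counts) and Mpo 1507-fold (793 to 3296). Ngp rose by 10.55 ± 0.50 on the log2 scale, to 1887, 2242 and 1653 CPM, and Ltf by 5.83 ± 0.48, to 514, 574 and 439.5 CPM. Chil3 did not pass the test (0.02, adjusted p = 0.928), at 84.7, 109.6 and 100.2 CPM. In all, 9 members were called higher, beside 15.3% of all genes, in the libraries whose erythroid, B cell and Tlx1 levels also stood far above other lungs.

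Between these lungs, 8 members were lower in 4T1 than in 4T07 lungs (11.9% of genes called lower), and the primary members differed most. The log2 difference was -5.30 ± 0.35 for Elane (adjusted p = 4.02e-10), -4.30 ± 0.22 for Mpo, -4.51 ± 0.27 for Prtn3 and -4.41 ± 0.23 for Ctsg. For the secondary members it was -2.72 ± 0.27 for Camp, -2.17 ± 0.31 for Ngp, -1.53 ± 0.38 for Ltf and -1.11 ± 0.23 for Lcn2. Pglyrp1 (-0.15, adjusted p = 0.699) and Chil3 (-0.18, adjusted p = 0.483) did not pass. The call of Lcn2 fell under the 2-fold limit without 4T07 lung 2 (-0.97) or 4T1 lung 3 (-0.82). These differences rest on the 4T07 lungs and cannot be given without them.

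**Figure D3:**
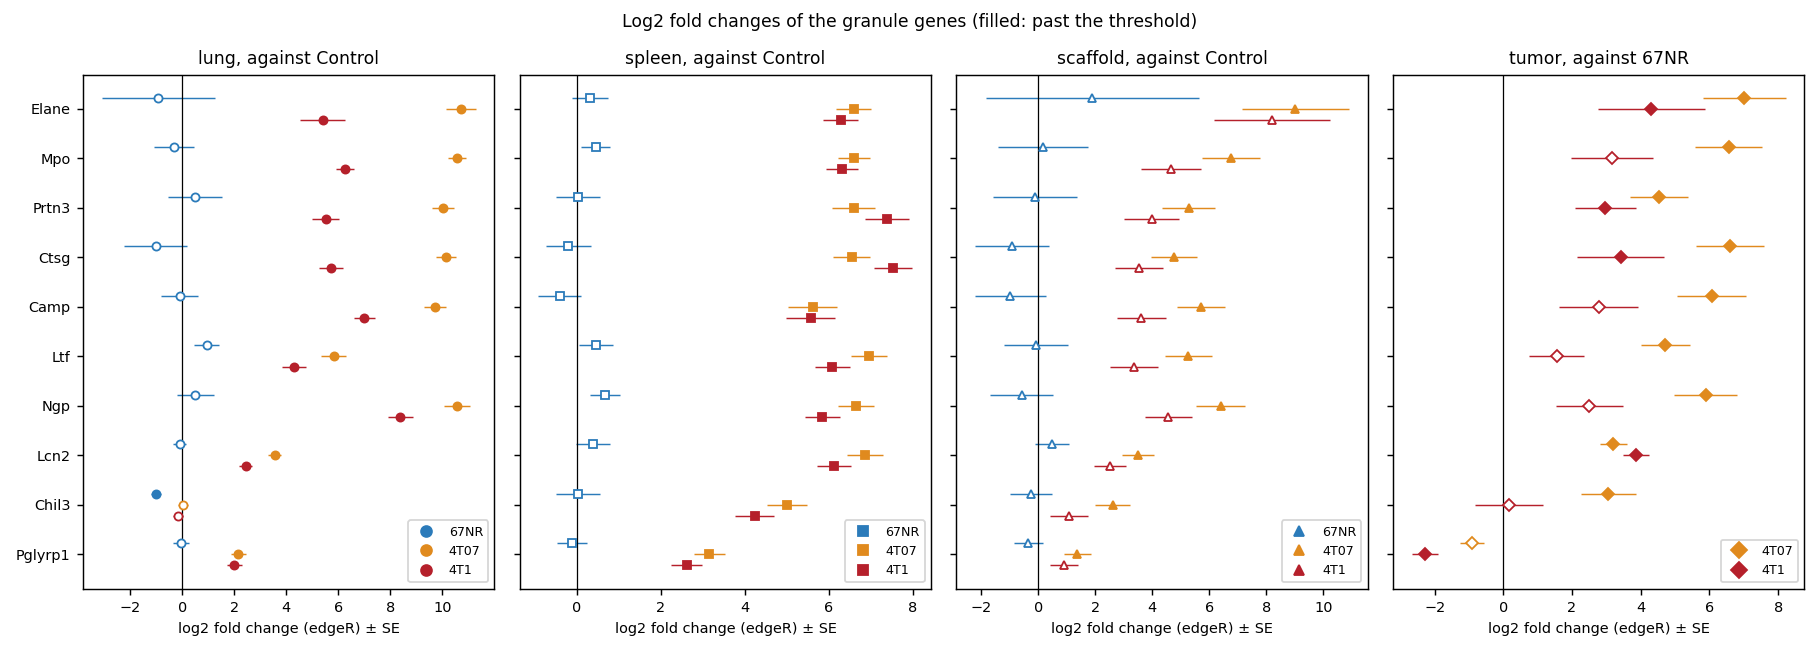
Log2 fold changes (edgeR) with their SE for the 10 granule genes in lung, spleen and scaffold against Control and in tumors against 67NR; colors give the tumor line, filled points passed the adjusted p and 2-fold limits of the tissue, and open points did not. In the spleen the 4T07 and 4T1 points lie between 2.61 and 7.53 and the 67NR points between -0.41 and 0.67; the Elane points in scaffolds, where Controls had 0 counts, depend on the prior count.

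In the scaffolds of tumor-bearing mice the granule genes reached lower levels than in spleen and spread widely between mice. In 4T07 scaffolds Elane was at 27.6, 3.54 and 2.17 CPM and Mpo at 232, 40.9 and 24.4 CPM. In 4T1 scaffolds Elane was at 12.9, 4.85 and 0.898 CPM and Mpo at 50.4, 9.51 and 7.18 CPM. Replicate 1 was the highest in both groups, and all libraries of both lay above the Control scaffolds, where Elane was at 0 and Mpo at 1.05, 0.633 and 0.787 CPM. Of all genes tested, 21.8% had every 4T07 scaffold above every Control scaffold, and 11.8% had every 4T1 scaffold above them. Ngp was at 550.4, 134 and 74.6 CPM with 4T07 and 136, 43.6 and 26.2 CPM with 4T1, from 1.68, 5.54 and 0.630 CPM in Controls. Camp was at 261, 56.4 and 21.7 CPM with 4T07 and 45.4, 18.3 and 13.6 CPM with 4T1, from 1.26, 3.48 and 0.944 CPM. For both genes the Control scaffolds lay below all others of these groups.

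Against Control, all 10 members were called higher in 4T07 scaffolds (3.85% of genes called higher). Elane was at least 21.2-fold higher against the 3-count floor, and at least 5.44-fold without replicate 1, the library with high erythroid markers and Tlx1. Mpo rose by 6.76 ± 1.02 on the log2 scale (adjusted p = 0.00102), Ngp by 6.40 ± 0.86 (adjusted p = 0.000626), Camp by 5.70 ± 0.85 and Lcn2 by 3.50 ± 0.55. Pglyrp1 was the weakest (1.38 ± 0.47, adjusted p = 0.0702), with overlapping libraries (21.3, 6.68 and 11.8 against 7.97, 3.48 and 2.68 CPM), and was lost without 4T07 scaffold 1 or 3 or Control scaffold 2 or 3 (0.88 to 1.46). Without replicate 1 the other 9 members were still called, with Mpo at 5.19 ± 0.76 (adjusted p = 0.000942), Ngp at 5.17 ± 0.67, Camp at 4.21 ± 0.60 and Lcn2 at 2.44 ± 0.39, and Chil3 close to the limit (1.12, adjusted p = 0.0996). Eosinophil markers also moved, summing to 373, 101 and 57.3 CPM in the 4T07 scaffolds, with 4 of 7 called higher, and their part was not tested.

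Against Control, no member was called in 4T1 scaffolds (0.0226% of genes were called in either direction), although 8 were higher at an unadjusted p under 0.05 in edgeR, as 6.7% of all genes were, and for 9 of 10 every 4T1 scaffold lay above every Control scaffold, as for 11.8% of all genes. Adjusted p ranged from 0.105 (Ngp, log2 4.56) to 0.532 (Chil3, log2 1.10), and Elane, with 0 counts in Controls, was at least 11.8-fold higher (adjusted p = 0.207). The DESeq2 Wald test called 5 members (Mpo 4.64, Camp 3.64, Ltf 3.28, Ngp 4.58 and Lcn2 2.54). Ngp was called in edgeR without 4T1 scaffold 3 (4.94, adjusted p = 0.047) or without Control scaffold 2 (5.82, adjusted p = 0.0679). In 67NR scaffolds 0 members were called in edgeR, where 0% of all genes were, 0 had an unadjusted p under 0.05, and the DESeq2 Wald test called 0. Elane had 1 count in the 3 67NR scaffolds together, and Ngp was at 2.22, 2.57 and 0.819 CPM.

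Against 67NR scaffolds, Ngp alone was called higher in 4T1 scaffolds (5.15 ± 0.87, adjusted p = 0.0914), where 0.00903% of genes were. This call was lost without 4T1 scaffold 1 or 2 or any 1 of the 67NR scaffolds (adjusted p from 0.118 to 0.452). The DESeq2 Wald test called 7 members there. The 4T1 and 4T07 scaffolds were not told apart by any member in edgeR (adjusted p from 0.143 to 0.689), where 1% of genes were called in either direction. The log2 differences lay between -0.48 (Pglyrp1) and -2.09 (Mpo), 5 members were lower at an unadjusted p under 0.05 (7.44% of all genes were) and the DESeq2 Wald test called 0. Without 4T1 scaffold 1, 3 members passed, namely Mpo (-3.53, adjusted p = 0.0347), Ngp (-2.83, adjusted p = 0.0713) and Camp (-2.79, adjusted p = 0.0929).

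In the primary tumors 8 of the 10 members had their highest mean with 4T07. Elane was at 0, 0 and 0.282 CPM in 67NR tumors, 40.1, 10.3 and 3.10 CPM in 4T07 tumors and 3.47, 3.48 and 0.863 CPM in 4T1 tumors. Ngp was at 0.269, 6.99 and 0 CPM with 67NR, 390.1, 91.3 and 37.5 CPM with 4T07 and 22.3, 15.2 and 9.93 CPM with 4T1. Camp was at 0, 3.08 and 0.282 CPM with 67NR, 216, 44.1 and 13.5 CPM with 4T07 and 13.2, 8.40 and 4.96 CPM with 4T1. Replicate 1 was the highest of the 4T07 tumors by several-fold, and replicate 2 was the highest of the 67NR tumors for Ngp and Camp. Against 67NR, 9 members were called higher in 4T07 tumors (17.2% of genes called higher), with Elane 207-fold higher over pooled counts (36.8 to 8202, 268 against 1 count), Ctsg 133-fold (45.1 to 645, 515 against 3 counts) and Mpo higher by 6.56 ± 0.98 on the log2 scale. Without replicate 1 of the 4T07 tumors these values were 81.4-fold for Elane (14.1 to 3261, 68 against 1 count), 44.7-fold for Ctsg (14.9 to 219.9, 112 against 3 counts) and 5.08 ± 0.71 for Mpo. Without that library, 9 members were still called in that comparison, since Chil3 lost its call (1.75, adjusted p = 0.084) and Pglyrp1 gained one in the other direction (-1.42, adjusted p = 0.00838). Markers of other cells moved as well. Fibroblast markers summed to 896 to 1117 CPM in 67NR tumors and to 4756 to 7059 CPM in 4T07 tumors (6 of 6 called higher), B cell markers to 7.27 to 18.5 and 40.5 to 203 CPM (5 of 6), and eosinophil markers to 1.98 to 5.64 and 44.3 to 212 CPM (7 of 7). Their part in this comparison was not tested.

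The 4T1 tumors differed from 67NR tumors in 5 members. Prtn3 (2.97 ± 0.90, adjusted p = 0.0195), Elane (28.9-fold over pooled counts, 4.90 to 1171, adjusted p = 0.0455), Ctsg (13.3-fold, 4.31 to 66.3, adjusted p = 0.0496) and Lcn2 were called higher, where 11.6% of genes were. The calls of Elane, Prtn3 and Ctsg were fragile: Ctsg lost its call without any 1 of the 6 libraries (adjusted p from 0.0642 to 0.152), and Elane and Prtn3 lost theirs without any 1 except 4T1 tumor 3 (0.081 to 0.135 for Elane and 0.0563 to 0.0712 for Prtn3), which left 2 members called without 4T1 tumor 1 or 2 or 67NR tumor 1 or 3. Mpo (3.16, adjusted p = 0.0571), Ngp (2.50, adjusted p = 0.0633) and Camp (2.78, adjusted p = 0.0795) just missed the limit. Mpo passed without 4T1 tumor 3 (3.52), and Ngp (6.44) and Camp (5.61) without 67NR tumor 2.

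Lcn2 and Pglyrp1 set themselves apart from the other members in tumors. Lcn2 was at 4.30, 10.6 and 5.08 CPM in 67NR tumors, 107, 65.3 and 48.5 CPM in 4T07 tumors and 91.4, 82.0 and 161 CPM in 4T1 tumors. Both 4T07 and 4T1 tumors lay above all 67NR tumors, by 3.20 ± 0.39 and 3.86 ± 0.39 on the log2 scale (adjusted p = 1.21e-05 and 2.35e-06). Of all genes tested, 35% had every 4T07 tumor above every 67NR tumor, and 31.2% had every 4T1 tumor above them. Lcn2 was the only member with a higher mean in 4T1 than in 4T07 tumors, without passing the test between them (0.66, adjusted p = 0.183). Epithelial markers moved with it, summing to 17.2 to 35.5 CPM in 67NR, 157 to 226 CPM in 4T07 and 1194 to 1333 CPM in 4T1 tumors, and their part was not tested. Pglyrp1 went the other way, at 22.0, 26.9 and 12.7 CPM in 67NR tumors and 6.22, 5.33 and 2.81 CPM in 4T1 tumors (-2.29 ± 0.38, adjusted p = 0.000277; 9.07% of genes called lower).

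Between the invasive tumors, 8 members were lower in 4T1 than in 4T07 tumors (4.79% of genes called lower), with log2 differences of -1.37 (Pglyrp1) to -3.40 (Mpo). Prtn3 (-1.55, adjusted p = 0.101) and Lcn2 did not pass. The count rested on replicate 1 of the 4T07 tumors, the library with high erythroid markers and Tlx1: without it 3 members (Mpo, Ctsg and Ltf) were still called, and Ngp (-1.97, adjusted p = 0.0532), Camp (-1.65, adjusted p = 0.0889), Chil3 (-1.64, adjusted p = 0.159), Elane (-1.33, adjusted p = 0.175) and Pglyrp1 (-0.91, adjusted p = 0.162) lost their calls. Without 4T1 tumor 3 the count was 5, as Chil3, Elane and Pglyrp1 lost their calls. Chil3 also lost its call without 4T1 tumor 1 (-2.82, adjusted p = 0.0646) and Pglyrp1 without 4T1 tumor 2 (-1.43, adjusted p = 0.0689), while Prtn3 gained one without 4T07 tumor 3 (-1.99, adjusted p = 0.0285). The DESeq2 Wald test called 5.

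Whether a tumor's effect on a member differed between tissues was tested directly, as the difference of log2 fold changes in 1 fit of the 36 lung, spleen and scaffold libraries, with 26665 genes and no fold limit. For 4T1 against Control, Chil3 (4.42 ± 0.63, adjusted p = 1.71e-05) and Lcn2 (3.70 ± 0.63, adjusted p = 0.000155) rose more in spleen than in lung (8.37% of genes called in this direction), from Control levels that were lower in spleen. Ngp rose less in spleen than in lung (-2.52 ± 0.97, adjusted p = 0.088; 8.41% of genes called in this direction), and this call was lost in 7 of the 12 fits that left out 1 library (-2.13 to -2.53). Ltf was called without 4T1 spleen 2 (2.19, adjusted p = 0.0816). The 4 primary members showed no difference past the limit, with adjusted p from 0.621 to 1. Against scaffold, Ctsg (3.97), Lcn2 (3.60), Chil3 (3.13) and Pglyrp1 (1.68) rose more in spleen (7.65% of genes). Without Control scaffold 1 only Lcn2 and Chil3 were called, without 4T1 scaffold 1 the count was 7, and Pglyrp1 lost its call in 7 of 12 such fits (1.05 to 1.76). Between lung and scaffold no member passed in edgeR (1.05% of genes in either direction), with 2 at an unadjusted p under 0.05 (7.86% of all genes). Ngp, at 3.79 (adjusted p = 0.136), was called by the DESeq2 Wald test (3.77) and in edgeR without 4T1 lung 3 (4.18), 4T1 scaffold 1 (4.79) or Control scaffold 3 (4.29).

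For 4T1 against 4T07, the difference between spleen and lung was large in the early genes. Elane (4.89 ± 0.77, adjusted p = 1.17e-05), Mpo (3.91 ± 0.72, adjusted p = 9.61e-05), Prtn3 (5.21 ± 0.72, adjusted p = 1.08e-06), Ctsg (5.29 ± 0.64, adjusted p = 9.38e-08) and Camp (2.57 ± 0.78, adjusted p = 0.0157) had a higher log2(4T1/4T07) in spleen than in lung, and these 5 were called whichever library was left out (12% of genes called in this direction). The other 5 secondary members lay between -0.68 (Chil3) and 1.26 (Ngp), with adjusted p from 0.262 to 0.861. In lung against scaffold the 4 primary members were lower (Elane -4.32, Mpo -2.08, Prtn3 -3.07, Ctsg -3.05; 7.75% of genes called in this direction), and without 4T1 scaffold 1 the calls of Mpo (-0.61, adjusted p = 0.65) and Prtn3 (-1.99, adjusted p = 0.101) were lost. Mpo also lost its call without 4T07 lung 2, 4T1 lung 3 or 4T07 scaffold 2 or 3 (-1.95 to -1.61), Camp gained one without 4T07 scaffold 1 (-2.05), and Chil3 gained one of the other sign without 4T07 scaffold 2 or 3 (1.81 and 1.94). In spleen against scaffold Ctsg alone was called (2.24 ± 0.63, adjusted p = 0.0912; 0.578% of genes), and 7 of 12 fits without 1 library lost it, among them that without 4T07 scaffold 1 (0.88, adjusted p = 0.68), while without 4T07 scaffold 3 the count was 4 members. All 3 of these contrasts use the 4T07 libraries described above, so their make-up and the tumor line cannot be told apart in the lung.

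Relative to the spleens of the same group, the 4T1 lungs held least of the primary members. Mean CPM in 4T1 lungs was 1.61% of that in 4T1 spleens for Elane, 2.08% for Prtn3, 2.65% for Ctsg and 5.45% for Mpo. For the secondary members it was 11.1% for Camp, 26.8% for Ngp, 49.7% for Ltf and 53.7% for Lcn2, and it reached 84.5% for Pglyrp1 and 121% for Chil3. For the 4T07 mice these shares lay between 46.5% (Elane) and 101% (Ctsg), with the primary and the secondary members mixed. All 4 primary shares lay below all 6 secondary shares with 4T1, and not with 4T07. Without a tumor, Chil3 and Lcn2 were already higher in lung than in spleen (Control means 101 against 4.67 CPM and 41.7 against 7.20 CPM). The 4T07 shares come from the lungs with high erythroid and B cell markers, where Tlx1 was at 88.0% of the 4T07 spleens. The part of either in these shares was not tested.

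The level of the primary members relative to the secondary members was computed within each library. This ratio need not give the stage of neutrophils, since other cells also express some secondary members. The 4T07 lungs in it are those with high erythroid, B cell and Tlx1 levels. Summed CPM of the primary members over that of the secondary members was 0.0475 to 0.0942 in 4T1 lungs, 0.354 to 0.418 in 4T07 lungs and 0.00492 to 0.00941 in Control lungs. In spleens it was 0.553 to 0.704 with 4T1, 0.268 to 0.389 with 4T07 and 0.202 to 0.276 in Controls. The 4T1 libraries were thus the highest spleens and lay between the Control and 4T07 lungs, with no overlap in either tissue. In scaffolds it was 0.198 to 0.373 with 4T1 and 0.259 to 0.332 with 4T07, which overlap, and in tumors 0.0439 to 0.224 with 4T1 and 0.265 to 0.358 with 4T07. In tumors this order rested on Lcn2, which made up 63.9% to 88.5% of the secondary sum with 4T1 and 12.1% to 36.1% with 4T07. With Lcn2 left out of the secondary members, an alternative chosen after the data had been seen, the ratio was 0.381 to 0.708 in 4T1 and 0.363 to 0.414 in 4T07 tumors, which overlap. It was then 0.0586 to 0.119 in 4T1 lungs and 0.401 to 0.471 in 4T07 lungs, and 0.613 to 0.797 in 4T1 spleens and 0.296 to 0.439 in 4T07 spleens, in the same order as with Lcn2. Chil3, Lcn2 and Ltf, which other cells also express, together made up 80.4% to 89.4% of the secondary sum in Control lungs, 40.9% to 48.4% in 4T1 lungs and 26.8% to 27.3% in 4T07 lungs.

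**Figure D4:**
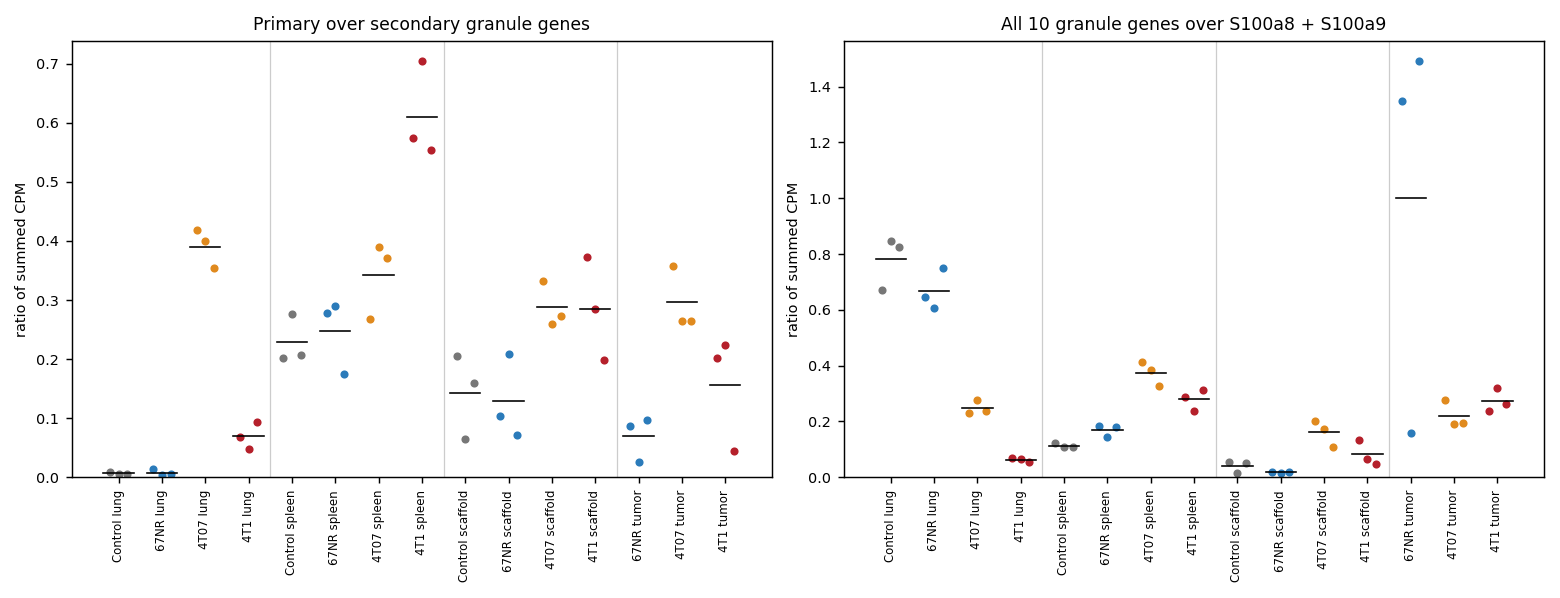
Left, summed CPM of the 4 primary over that of the 6 secondary granule genes in each library; right, summed CPM of all 10 over that of S100a8 and S100a9; points are libraries and black lines group means, on linear axes from 0. The left ratio is 0.553 to 0.704 in 4T1 spleens and 0.0475 to 0.0942 in 4T1 lungs.

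The transcripts S100a8 and S100a9, abundant in mature neutrophils, did not follow this split. Their summed level was 10773 to 24912 CPM in 4T1 lungs, 19894 to 23569 CPM in 4T07 lungs, 10826 to 27539 CPM in 4T1 spleens and 19659 to 24780 CPM in 4T07 spleens, so the 4 groups overlapped in range. The primary members summed to 50.8 to 94.5 CPM in 4T1 lungs, 1234 to 1851 CPM in 4T07 lungs, 1057 to 2904 CPM in 4T1 spleens and 2017 to 2206 CPM in 4T07 spleens. Per CPM of S100a8 and S100a9, the primary members stood at 0.00301 to 0.00472 in 4T1 lungs, 0.0620 to 0.0786 in 4T07 lungs and 0.0977 to 0.112 in 4T1 spleens. The 4T1 lungs overlapped on this ratio with Control lungs (0.00404 to 0.00626) and 67NR lungs (0.00204 to 0.00889). This ratio need not give the stage of neutrophils. All 10 members over S100a8 and S100a9 gave 0.0548 to 0.0683 in 4T1 lungs and 0.672 to 0.846 in Control lungs, where Chil3, Lcn2 and Pglyrp1 made up most of the members' sum. Cxcr2, the receptor of mature neutrophils, was higher in 4T1 than in 4T07 lungs (109 to 268 against 60.5 to 76.6 CPM, log2 1.42, adjusted p = 3.36e-05). This was in the opposite direction to the primary members. By group means Cxcr2 was also higher in 4T1 than in 4T07 spleens (138 against 51.8 CPM), where no member was called. Ly6g, another neutrophil gene, had a lower mean in 4T1 than in 4T07 lungs (257 against 383 CPM). The 4T07 lungs here are those with high erythroid, B cell and Tlx1 levels, and the part of their make-up was not tested.

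**Figure D5:**
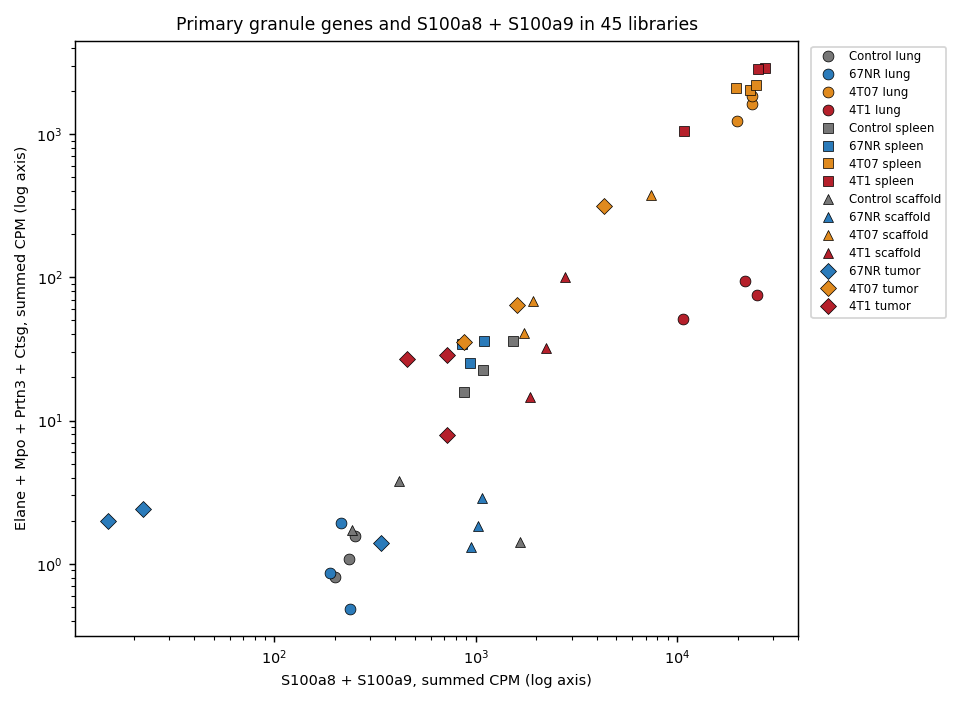
Summed CPM of Elane, Mpo, Prtn3 and Ctsg against summed CPM of S100a8 and S100a9 in the 45 libraries (log axes); colors give the tumor line and symbols the tissue. The 4T1 lungs reach 10773 to 24912 CPM on the horizontal axis, overlapping with the 4T1 spleens, and 50.8 to 94.5 CPM on the vertical axis, under every 4T1 spleen.

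Other genes of neutrophil development were taken from lists that share no gene with the 10 members. Against Control, 9.85% of all genes were called higher in 4T1 spleens and 3.56% in 4T1 lungs. With 4T07 the shares called higher were 8.26% in spleen, 15.3% in lung and 3.85% in scaffold, and 13.7% were called lower in lung. In 4T1 against 4T07 lungs 11.6% were called higher and 11.9% lower. Of 10 further promyelocyte and primary granule genes, 8 were called higher in 4T1 spleens and 6 in 4T1 lungs against Control, with median log2 fold changes of 1.89 and 1.20. Ms4a3, a membrane protein of granulocyte progenitors, rose by 6.14 in 4T1 spleens and 5.28 in 4T1 lungs, and Prss57, a serine protease of primary granules, by 6.31 and 5.41. Fcnb (ficolin B) rose by 4.27 and 4.73, with Hdc (3.57) the next in spleen and Igsf6 (2.65) in lung. In 4T07 mice 8 of these 10 were higher in spleen, 8 in lung and 4 in scaffold, while edgeR called 0 in 4T1 scaffolds, where 3 had an unadjusted p under 0.05, as 12.1% of all genes did in either direction. In 4T1 against 4T07 lungs 7 were lower, among them Ms4a3 (5.10 to 9.02 against 114 to 141 CPM; log2 -4.18).

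Of 15 further secondary and gelatinase granule genes, 12 were called higher in 4T1 spleens and 8 in 4T1 lungs, with medians of 3.74 and 2.83. In 4T1 lungs these were led by Olfm4 (6.37), Mmp8 (4.83), Mmp9 (4.82) and Wfdc21 (4.72), where Mmp8 and Mmp9 are the collagenase and gelatinase of late granules. In 4T1 spleens they were led by Cd177 (6.57), Orm1 (4.97), Wfdc21 (4.86) and Itgb2l (4.51). In 4T07 mice 12 were higher in spleen, and in lung 11 were higher and 1 lower. Of these 15, 3 were lower in 4T1 than in 4T07 lungs and 0 higher, with a median of -0.60, against a median of -2.20 for the promyelocyte list and of 0.04 for all genes. In the 4T1 scaffolds 0 were called in edgeR, with 6 at an unadjusted p under 0.05, as 12.1% of all genes were. In 4T07 scaffolds 6 were higher and 1 lower, where 3.85% of all genes were called higher and 3.59% lower.

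Of 15 mature neutrophil genes, 14 were called higher and 1 lower in 4T1 lungs, where 3.56% and 1.05% of all genes were. In 4T1 spleens 13 were higher, where 9.85% of all genes were. Ly6g, the surface antigen of mouse neutrophils, rose by 7.37 in lung and 4.95 in spleen, S100a8 by 6.53 and 4.58, and S100a9 by 6.23 and 4.22. Cxcr2 rose by 5.53 in lung and 2.92 in spleen, and Trem1 by 4.25 in spleen. In 4T1 against 4T07 lungs, 7 were higher and 0 lower, the opposite side from the promyelocyte genes, while S100a8 (-0.13, adjusted p = 0.712) and S100a9 (-0.44, adjusted p = 0.122) did not pass. The 4T07 lungs in this comparison are those with high erythroid, B cell and Tlx1 levels. In scaffolds this list gave 0 calls with 4T1 in edgeR, with 4 at an unadjusted p under 0.05, as 12.1% of all genes were. With 4T07 it gave 4 higher and 4 lower (3.85% and 3.59% of all genes), where all 10 granule members were higher. Control scaffolds already held 521 to 3485 CPM of these 15 genes together, against 387 to 484 CPM in Control lungs.

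Of the regulators of granulopoiesis, 11 of 12 could be tested in the organs. In 4T1 spleens 7 were called higher and in 4T1 lungs 4, where 9.85% and 3.56% of all genes were. The list shares Csf3r, the G-CSF receptor, with the mature neutrophil genes, and Csf3r rose by 4.16 in spleen and 4.74 in lung. Cebpe, a C/EBP factor needed for secondary granules, rose by 3.89 in 4T1 spleens and 5.11 in 4T1 lungs, to 20.3 to 46.7 and 4.95 to 11.6 CPM, and was at 70.7 to 111 CPM in 4T07 lungs. Gfi1, a repressor needed for neutrophil commitment, rose by 3.13 in 4T1 spleens, to 11.3 to 29.5 CPM. In 4T1 lungs Gfi1 did not pass (0.57, adjusted p = 0.655), at 0.706 to 1.13 CPM, against 15.8 to 21.3 CPM in 4T07 lungs (4T1 against 4T07, -4.39). Cebpd rose by 3.14 in 4T1 spleens and 1.03 in 4T1 lungs, and Spi1, which encodes PU.1, by 2.05 in 4T1 lungs.

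In the tumors the same lists were read against 11.6% of all genes called higher and 9.07% called lower in 4T1 against 67NR. There, 1 of the 10 promyelocyte genes was higher (Hdc, 1.92) and 1 lower (Nkg7, -1.65), and 4 of the 15 secondary and gelatinase genes were higher (Mmp9 2.89, Hp 2.15, Wfdc21 2.06, Adam8 1.31). Of the mature neutrophil genes 9 were higher and 1 lower, led by Cxcl2 (5.43), Trem1 (5.19), Il1r2 (3.46) and Il1b (3.12), genes that macrophages also express. S100a9 passed (2.21, adjusted p = 0.0434) and S100a8 did not (2.03, adjusted p = 0.0758). Of the regulators 5 were higher, among them Cebpe (2.24), Runx1 (1.92) and Myb (1.61). Csf3, the G-CSF gene, had 0 counts in the 67NR tumors and was at 16.3 to 18.9 CPM in 4T1 and 3.01 to 8.47 CPM in 4T07 tumors. By group means, Csf3 and most members did not have the same order across the lines, and a relation between them was not tested. Csf3 was higher in every 4T1 than in every 4T07 tumor, as were 16.5% of all genes tested. Of the 10 members, 8 were called lower in 4T1 than in 4T07 tumors, where 4.79% of all genes were. Without 4T07 tumor 1 that count was 3. Libraries of the 2 lines overlapped for Elane (3.10 CPM in 4T07 tumor 3, 3.48 CPM in 4T1 tumor 2). In 4T07 against 67NR tumors 5 of 10, 9 of 15, 12 of 15 and 8 of 12 genes of these lists were higher, where 17.2% of all genes were.

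The genes whose level followed the members most closely across the 45 libraries are given as a description only, since libraries of 1 tissue and line share much else. Among 16711 genes with a mean of at least 1 CPM, Ms4a3 was the most like the mean log2(CPM + 1) of the primary members (Pearson's r = 0.986), followed by Fcnb (0.977), Epx (0.974), Prss57 (0.971), Ear6 (0.969), Prss34 (0.968), Prg2 (0.963) and Cebpe (0.960). Epx, Ear6 and Prg2 are granule genes of eosinophils and Prss34 is a protease of basophils, so other granulocyte lineages are represented beside the neutrophil genes. For the secondary members Cd177 came first (0.963), followed by 4930438A08Rik (0.942), Abca13 (0.940), Lin28a (0.939), Ms4a3 (0.938), Ly6g (0.935), Prss34 (0.935) and Ifitm6 (0.935).

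By level, the 15 groups fell into like orders for the primary members. For each of the 4, the 4T07 spleens, 4T1 spleens and 4T07 lungs held the top 3 places, neighbours in each order overlapped, and the group next below did not overlap with the last of them. For Elane the first and the last of these, 4T07 spleens and 4T07 lungs, did not overlap. Prtn3 and Ctsg were highest in 4T1 spleens and the other 8 members in 4T07 spleens. For Ltf, Ngp, Lcn2 and Pglyrp1 the 4T07 spleens lay above all 4T07 lungs without overlap. The same held narrowly for Chil3 (lowest 4T07 spleen 110.5 CPM, highest 4T07 lung 109.6 CPM). Chil3 kept its own order, with Control lungs in second place (102, 125 and 75.4 CPM) after 4T07 spleens (178, 115 and 111 CPM) and overlapping with them. For Pglyrp1, the 67NR tumors, Control lungs and Control spleens overlapped one another in the middle of the order, at 10.5 to 30.9 CPM.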

How the data were processed

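RNA was extracted from lungs, spleens, scaffolds and primary tumors and sequenced as 3′ tag libraries made with a QuantSeq FWD kit and unique molecular identifiers. The authors deposited whole-number counts per gene symbol, without normalization. The submitters' processing notes name Trim Galore 0.5.0, STAR 2.6.0 and featureCounts; the genome build, the annotation and any collapsing of reads by identifier are not given in the sources used here. The table had 55487 lines, and the 120 lines that repeated a symbol were added to the first, which gave 55367 symbols.

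Groups came from the sample labels. Each tissue was fitted with all of its groups in edgeR 4.0.16 (R 4.3.3) with TMM factors and its quasi-likelihood F test, and p-values were adjusted (Benjamini-Hochberg) over all genes with more than 10 counts in the tissue. Genes were called at an adjusted p under 0.10 (0.05 in tumors) and a fold over 2, the limits of the study. Control tissues were compared in a fit of the 9 Control libraries, and differences between tissues as interaction terms at an adjusted p under 0.10. The SE is the log2 fold change divided by the square root of F. Ratios of summed counts carry exact 95% binomial intervals. Tables were handled in pandas 2.3.3, and the steps were tested on simulated data. Upstream sequence came from RefSeq (GRCm38.p6). All 10 members are named in every comparison; of the other lists, at most 4 genes per list and tissue with the largest called change in 4T1 are named, with S100a8, S100a9, Cxcr2, Cebpe, Gfi1, Csf3 and Ms4a3 and the genes most like the members in pattern. The members and lists were chosen with earlier results of these data known. Results were recomputed with library totals, with DESeq2 size factors or its Wald test (DESeq2 1.42.0), with scaling without the 100 most counted genes and the members, with other count filters, with only the compared groups, and without each library in turn. The ratio of primary over secondary members was also computed without Lcn2. Libraries of 1 group are taken as 1 mouse each.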

Additional observations from a re-analysis of the deposited data

Results flagged for a closer look

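The results named here are differences of a tumor effect between tissues that passed the test of the difference itself, each a difference of 2 log2 fold changes over 3 mice a group, at an adjusted p under 0.10 in edgeR.

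For log2(4T1/Control), the change in spleen minus that in lung was 4.42 for Chil3, 3.70 for Lcn2 and -2.52 for Ngp. The change in spleen minus that in scaffold was 3.97 for Ctsg, 3.60 for Lcn2, 3.13 for Chil3 and 1.68 for Pglyrp1. The calls of Ngp and Pglyrp1 were lost in most fits that left out 1 library, and that of Ctsg without Control scaffold 1.

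For log2(4T1/4T07), the change in spleen minus that in lung was 4.89 for Elane, 3.91 for Mpo, 5.21 for Prtn3, 5.29 for Ctsg and 2.57 for Camp. The change in lung minus that in scaffold was -4.32 for Elane, -2.08 for Mpo, -3.07 for Prtn3 and -3.05 for Ctsg, and that in spleen minus scaffold was 2.24 for Ctsg. In lung minus scaffold the calls of Mpo and Prtn3 were lost without 4T1 scaffold 1. The call of Ctsg in spleen minus scaffold was lost in most fits that left out 1 library and with the DESeq2 Wald test. In these contrasts the 4T07 lungs, which also held high erythroid, B cell and Tlx1 levels, enter every value that involves the lung. Their make-up and the tumor line cannot be told apart.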

How the results depend on the processing

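No member called in the main run or in an alternative had the opposite direction in the other. Directions of members called in neither were not compared. The mean ratio of primary over secondary members in 4T1 and 4T07 tumors changed order, from 0.157 and 0.296 to 0.549 and 0.395, when Lcn2 was left out of the secondary members. Of the counts of called members, 148 alternative values were within 1.5 times the reported count and 38 were not; with 1 library left out, 165 were and 33 were not. The cause of each change was not tested, except that requiring at least 10 counts in every library removes most members from the test.

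With that filter the counts became 3 for 4T07 against Control lung, 3 for 4T1 against Control lung, 3 for 4T1 against 67NR lung, 2 for 4T1 against 4T07 lung, 2 for 4T07 against Control scaffold, 0 for 4T1 against 67NR scaffold, 1 for 4T07 against 67NR tumor, 2 for 4T1 against 67NR tumor, 1 for 4T1 against 4T07 tumor, 2 for Control lung against Control scaffold, 1 for Control spleen against Control lung, 1 for Control spleen against Control scaffold, 0 for each of the 3 differences of log2(4T1/4T07) between tissues, and 1 and 2 for log2(4T1/Control) in spleen against lung and scaffold. Without a filter they became 8 for 4T1 against Control scaffold, 10 for 4T1 against 67NR scaffold, 7 for 4T1 against 4T07 scaffold, 9 for 4T1 against 67NR tumor, 6 for log2(4T1/4T07) in spleen against scaffold, and 4, 5 and 9 for log2(4T1/Control) in lung against scaffold, spleen against lung and spleen against scaffold. With this setting the edgeR adjusted p of Ngp in 4T1 against Control scaffold fell from 0.105 to 1.99e-69. Values this small from 3 libraries a group are not credible, and the counts without a filter are not relied on here.

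The DESeq2 Wald test gave 5 for 4T1 against Control scaffold, 7 for 4T1 against 67NR scaffold, 5 for 4T1 against 4T07 tumor, 0 for log2(4T1/4T07) in spleen against scaffold and 1 for log2(4T1/Control) in lung against scaffold. DESeq2 size factors in edgeR gave 1 for 4T1 against Control scaffold. Library totals gave 0 for 4T1 against 67NR scaffold and 0 for 67NR against Control lung. These 2 scalings and scaling without the 100 most counted genes and the members gave 0 for log2(4T1/4T07) in spleen against scaffold. With only the compared groups fitted, 4T1 against 67NR gave 3 in scaffold and 8 in tumor.

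With 1 library left out, counts ranged from 3 to 9 for 4T1 against 4T07 tumor, 2 to 5 for 4T1 against 67NR tumor, 0 to 3 for 4T1 against 4T07 scaffold, 0 to 1 for 4T1 against Control and against 67NR scaffold, 0 to 1 for 4T1 against 4T07 spleen and 67NR against Control lung, 2 to 5 for log2(4T1/4T07) in lung against scaffold, 0 to 4 in spleen against scaffold, 0 to 1 for log2(4T1/Control) in lung against scaffold and 2 to 7 in spleen against scaffold.

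Library depth limits the primary members in lungs, scaffolds and tumors without 4T07 or 4T1, where Elane had 0 to 2 counts a group. No paired analysis was possible because the labels do not link tissues of 1 mouse and replicate numbers were given in accession order.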
